A study of Mus musculus with 6 samples.

Results

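A set of 10 choroid plexus genes that do not encode transporters was followed in the entorhinal cortex (EC) of both mouse hemispheres: Ttr, Kl, Sostdc1, F5, Prlr, Ace, Col8a1, Cldn2, Calml4 and Defb11. They were chosen by symbol from the authors' deposited table of left versus right EC, with the folds and p-values of that table already known, and they are 10 of its 18746 genes. Total RNA came from the dissected EC of untreated wild-type C57BL/6 mice aged 6 months, and the 3 samples of each side were hybridised to Affymetrix Mouse Gene 2.0 ST arrays, 1 array a sample and 6 in all, under labels that call them biological replicates. Nothing in the labels says whether left and right samples share a mouse, and no group carried a transgene or a treatment. For each named gene that table holds a fold and a p-value, while the table of log2 signals per array is not paired with gene names here, so the members have no value per array, no replicate SD and no expression level below. All folds and p-values of the members are therefore a description of the values that chose them, and no test is made of them.

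The choroid plexus is a folded epithelium in the brain ventricles that makes cerebrospinal fluid and seals it from the blood. Its cells release carrier proteins and hormone-like factors into the fluid, carry receptors for circulating hormones, and are joined by tight junctions with their own set of claudins. The EC itself is cortex, built of neurons and glia, and links the neocortex with the hippocampus.

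All 10 members were higher in right EC in the authors' deposited table, where 46% of all genes were higher on that side by any amount. The members' folds ran from 1.34 to 5.59, with a median log2 fold (left minus right) of -1.09 against 0.01 over all genes. Positive folds were taken to mean more signal in left EC, a likely reading because the title line of that table names left versus right and because, with all 6 arrays, the large differences lay on the right in both deposited tables. Of the members 8 were at least 1.5-fold higher in right EC, as were 0.197% of all genes in the authors' deposited table (0.0267% were that much higher in left EC), and 6 were at least 2-fold higher, as were 0.048%. A listed p under 0.05 was listed for 8 members, all higher in right EC, against 4.1% of all genes with such a p on that side and 3.77% with one on the left. The rule used this contrast, so nothing is read from these shares. Adjusted by Benjamini-Hochberg over all genes, the p-values of the members in the authors' deposited table were 0.601 to 0.692, so 0 of them passed, and the smallest over all genes was 0.509. In bulk tissue more cells of a type and more RNA per cell cannot be told apart.

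**Figure D1:**
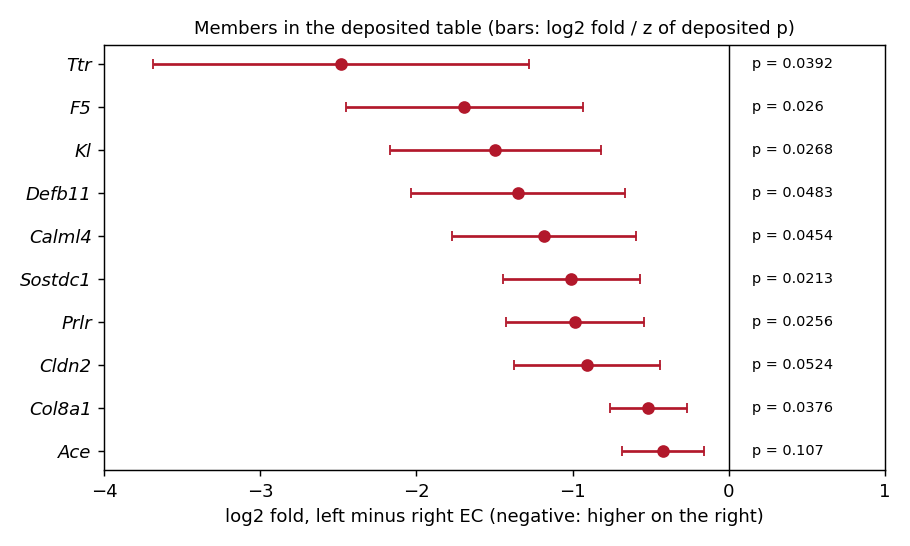
Log2 fold, left minus right EC, of the 10 members in the authors' deposited table (x axis), with the listed p-value printed beside each gene. Bars are the log2 fold divided by the normal deviate of the listed p on either side of the point. All points lie left of 0, from -2.48 for Ttr to -0.42 for Ace.

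Among the secreted carriers and hormone-like factors, Ttr encodes transthyretin, which carries thyroxine and, through retinol-binding protein, retinol. It was 5.59-fold higher in right EC in the authors' deposited table (listed p = 0.0392), which ranked first of the 18746 genes. A standard error can be read back from a deposited fold and p as the log2 fold divided by the normal deviate of the p. For Ttr it was 1.20 log2 units around a log2 fold of -2.48, and 0.822 if the p came from a test with 4 residual degrees of freedom. The test behind the listed p is not stated in the labels or headers, so this error is an approximation, and it is given in its normal form for the other members.

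Genes that handle thyroid hormone and retinol around transthyretin had small folds. Of 11 such genes 9 (81.8%) were higher in right EC in the authors' deposited table, with a median log2 fold of -0.10. A listed p under 0.05 was found for 2 of them (18.2%), both higher in right EC. Of all genes 46% were higher on that side, and 4.1% had such a p there. The thyroid hormone transporter gene Slco1c1 was 1.13-fold higher in right EC in the authors' deposited table (listed p = 0.0443). Stra6, the receptor that takes up retinol from its binding protein, was 1.17-fold higher in right EC in the authors' deposited table (listed p = 0.0821).

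Kl encodes klotho, a membrane protein whose shed form circulates and which makes FGF receptors respond to FGF23. In the authors' deposited table it was 2.82-fold higher in right EC (log2 fold -1.50, approximate standard error 0.675, listed p = 0.0268). The receptor and ligand side of this axis did not show differences of that size. Fgfr1, a receptor that pairs with klotho, was 1.12-fold higher in right EC (listed p = 0.0323) and was the 1 gene of 11 with a p under 0.05, and the ligand Fgf23 was 1.05-fold higher in left EC (listed p = 0.187), in the authors' deposited table. The median log2 fold of the 11 genes was 0.02 in the authors' deposited table, with 8 of them higher in left EC.

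Sostdc1 encodes a secreted antagonist of BMP and Wnt signals. It was 2.01-fold higher in right EC in the authors' deposited table (log2 fold -1.01, approximate standard error 0.437), and its listed p of 0.0213 was the smallest among the members. A smaller listed p was listed for 657 genes of the authors' deposited table. Of 12 other BMP and Wnt ligands, receptors and antagonists 5 were higher in right EC and 0 had a listed p under 0.05 in the authors' deposited table. The smallest p-values there belonged to the secreted proteins Dkk3 (1.12-fold, listed p = 0.0577) and Chrd (1.12-fold, listed p = 0.0674), and the largest fold to the ligand Bmp4 (1.18-fold, listed p = 0.0795), all 3 higher in left EC in the authors' deposited table.

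F5 encodes coagulation factor V, the cofactor with which factor Xa turns prothrombin into thrombin. It was 3.23-fold higher in right EC in the authors' deposited table (log2 fold -1.69, approximate standard error 0.761, listed p = 0.026), the second largest fold to that side. Other clotting genes, of which 15 of 22 listed had a value here, were divided. Of 15 genes 7 were higher in right EC and 8 in left EC in the authors' deposited table, with a median log2 fold of 0.01 and 1 gene with a listed p under 0.05 on each side. These were the thrombin receptor F2r, 1.08-fold higher in right EC (listed p = 0.0306), and prothrombin itself, F2, 1.12-fold higher in left EC (listed p = 0.0421), in the authors' deposited table. Thbd, encoding the thrombin-binding anticoagulant thrombomodulin, was 1.21-fold higher in left EC (listed p = 0.141) in the authors' deposited table.

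Of the hormone receptor and the hormone-processing enzyme, Prlr encodes the prolactin receptor. It was 1.98-fold higher in right EC in the authors' deposited table (log2 fold -0.99, approximate standard error 0.441, listed p = 0.0256). RefSeq places starts of Prlr at 3 windows of GRCm38.p6, and one of them, with 250 bases upstream at chr15:10223656-10223905 on the plus strand, holds the forkhead letters TGTTTAC from position -215 and the E-box CAGCTG from position -26, counted from the start. It is shown because it carries 2 of the searched motifs, which are in capitals:
Prlr: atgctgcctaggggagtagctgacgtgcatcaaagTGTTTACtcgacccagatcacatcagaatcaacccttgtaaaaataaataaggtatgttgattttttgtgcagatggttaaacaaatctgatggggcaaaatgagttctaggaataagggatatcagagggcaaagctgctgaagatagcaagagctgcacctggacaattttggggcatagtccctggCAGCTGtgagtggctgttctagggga

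Ligands, receptors and downstream genes of prolactin and growth hormone signalling lay on both sides of 0. Of 12 genes 6 were higher on each side in the authors' deposited table, with a median log2 fold of 0.00. The 1 gene with a listed p under 0.05 was Prlhr, the receptor of prolactin-releasing peptide, 1.15-fold higher in right EC (listed p = 0.0229) in the authors' deposited table. Prl itself was 1.19-fold higher in left EC (listed p = 0.625) and Ghr, the growth hormone receptor, 1.06-fold higher in right EC (listed p = 0.143), in the authors' deposited table.

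Ace encodes angiotensin-converting enzyme, which makes angiotensin II and breaks down bradykinin. It had the smallest difference among the members, 1.34-fold higher in right EC in the authors' deposited table (log2 fold -0.42, approximate standard error 0.262, listed p = 0.107). RefSeq places starts of Ace at 2 windows, of which the one at chr11:105974939-105975188 holds the E-box CAGCTG from position -211. The other, the 250 bases at chr11:105967698-105967947 (GRCm38.p6, plus strand), was the only member window with the OTX letters TAATCC, from position -27. There they overlap the TATA letters on the opposite strand from position -31. OTX2 is a homeodomain factor needed for choroid plexus development in the mouse. The window with the OTX letters is shown because of this overlap, with both motifs in capitals:
Ace: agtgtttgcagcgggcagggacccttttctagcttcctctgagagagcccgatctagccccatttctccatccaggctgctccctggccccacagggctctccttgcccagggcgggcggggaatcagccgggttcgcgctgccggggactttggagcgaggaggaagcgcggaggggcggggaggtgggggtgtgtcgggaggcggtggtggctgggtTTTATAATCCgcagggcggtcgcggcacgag

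Of 14 genes of the renin-angiotensin and kinin system 11 were higher in left EC and 0 had a listed p under 0.05 in the authors' deposited table, with a median log2 fold of 0.04. The angiotensin receptor gene Agtr1b was 1.18-fold higher in left EC (listed p = 0.0583) and the bradykinin receptor gene Bdkrb2 1.09-fold (listed p = 0.127), in the authors' deposited table.

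For the matrix and the cell junction, Col8a1 encodes the alpha 1 chain of type VIII collagen, a short-chain collagen of basement membranes. It was 1.43-fold higher in right EC in the authors' deposited table (log2 fold -0.51, approximate standard error 0.247, listed p = 0.0376). Its upstream window at chr16:57754738-57754987 (GRCm38.p6, minus strand, RefSeq) holds the forkhead letters TATTTAC from position -181, in capitals:
Col8a1: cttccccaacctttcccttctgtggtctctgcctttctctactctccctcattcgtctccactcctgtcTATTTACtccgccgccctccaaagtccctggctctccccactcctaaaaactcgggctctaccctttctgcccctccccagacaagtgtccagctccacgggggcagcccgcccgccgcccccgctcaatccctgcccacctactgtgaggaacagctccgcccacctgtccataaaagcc

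The other chains of this kind of matrix lay on both sides of 0. Of 20 collagen, laminin, nidogen and perlecan genes 10 were higher on each side and 0 had a listed p under 0.05 in the authors' deposited table, with a median log2 fold of -0.01. Lama5, a laminin chain, was 1.09-fold higher in right EC (listed p = 0.0549), Lama4 1.09-fold higher in left EC (listed p = 0.165) and Nid2 1.13-fold higher in right EC (listed p = 0.252), in the authors' deposited table.

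Cldn2 encodes claudin 2, which forms channels for cations and water in the tight junctions of leaky epithelia. It was 1.88-fold higher in right EC in the authors' deposited table (log2 fold -0.91, approximate standard error 0.469, listed p = 0.0524). Upstream of it, at chrX:139800558-139800807 (GRCm38.p6, plus strand, RefSeq), the TATA letters TATAAA start at position -35 and the E-box CAGCTG at position -61. It is shown as the member window with TATA letters on the gene's own strand, motifs in capitals:
Cldn2: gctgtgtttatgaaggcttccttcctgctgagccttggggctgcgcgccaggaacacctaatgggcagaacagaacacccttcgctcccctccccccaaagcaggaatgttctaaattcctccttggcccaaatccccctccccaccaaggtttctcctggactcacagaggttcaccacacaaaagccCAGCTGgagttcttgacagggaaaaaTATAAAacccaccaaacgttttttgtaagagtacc

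Of 19 other tight junction genes 11 were higher in right EC in the authors' deposited table, with log2 folds from -0.23 to 0.29 and a median of -0.04. F11r, encoding the junctional adhesion molecule JAM-A, was the 1 gene with a listed p under 0.05 (1.17-fold higher in right EC, p = 0.0151) in the authors' deposited table. Averaged over its 2 rows in the authors' deposited table, the adherens junction gene Cdh1 was 1.22-fold higher in left EC (p = 0.0591 from the averaged normal deviates). The claudin of brain endothelium, Cldn5, was 1.04-fold higher in right EC (listed p = 0.279) in the authors' deposited table.

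Calml4 encodes a calmodulin-like protein of the brush border. It was 2.27-fold higher in right EC in the authors' deposited table (log2 fold -1.18, approximate standard error 0.591, listed p = 0.0454). Of 8 calmodulin and brush border genes 5 were higher in right EC in the authors' deposited table, with a median log2 fold of -0.02. The calmodulin-like gene Calml3 was 1.21-fold higher in left EC (listed p = 0.0187), opposite to Calml4, and Ush1c, a scaffold of the brush border, 1.10-fold higher in left EC (listed p = 0.068), in the authors' deposited table.

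Defb11 belongs to the beta-defensins, small secreted peptides of which the best studied act against microbes. It was 2.55-fold higher in right EC in the authors' deposited table (log2 fold -1.35, approximate standard error 0.684, listed p = 0.0483). Its family did not lean that way. Of 36 other beta-defensin genes 27 were higher in left EC and 9 in right EC in the authors' deposited table, with a median log2 fold of 0.04 and 2 genes with a listed p under 0.05 on each side. The largest fold to the right among the 36 was that of Defb9, 1.34-fold (listed p = 0.0451), in the authors' deposited table, and Defb9 is the nearest measured gene to one side of Defb11 on chromosome 8. Defb41 was 1.10-fold higher in right EC (listed p = 0.0148), Defb12 1.19-fold and Defb35 1.14-fold higher in left EC (listed p = 0.0315 and 0.0334), in the authors' deposited table.

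Defb11 and Defb9 were compared in upstream sequence only. Among 28 other beta-defensin genes with a RefSeq window, the 250 bases upstream of Defb10 and of Defb9 were the most like those of Defb11, at 67.7% and 66.1% identity over the alignment. The rest ran from 58.2% (Defb39) down to 46.5% (Defb15). The upstream windows of Defb11 (chr8:21906433-21906682) and Defb9 (chr8:21885435-21885684), both on the minus strand of GRCm38.p6, are shown to be compared, with every searched motif in capitals:
Defb11: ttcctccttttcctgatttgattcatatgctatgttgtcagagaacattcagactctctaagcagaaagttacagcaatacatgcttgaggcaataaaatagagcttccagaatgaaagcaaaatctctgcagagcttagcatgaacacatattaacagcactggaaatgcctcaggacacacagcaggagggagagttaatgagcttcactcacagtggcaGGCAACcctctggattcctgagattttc
Defb9: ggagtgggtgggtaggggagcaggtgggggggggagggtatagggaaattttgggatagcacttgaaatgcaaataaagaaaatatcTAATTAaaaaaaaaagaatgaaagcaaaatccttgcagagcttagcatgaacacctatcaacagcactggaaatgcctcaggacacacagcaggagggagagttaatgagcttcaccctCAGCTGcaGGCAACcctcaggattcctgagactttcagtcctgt
Both hold the letters GGCAAC, the reverse complement of the RFX letters GTTGCC, and Defb9 also holds TAATTA and the E-box CAGCTG. Defb10 was 1.04-fold higher in left EC in the authors' deposited table (listed p = 0.583), so the 2 genes nearest to Defb11 in upstream sequence lay on opposite sides of 0. The probe sequences are not used here, so whether the probes named for Defb11 also bind transcripts of its relatives was not tested.

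The members share no location. They lie on 10 different chromosomes in RefSeq, and the genes beside them were near 0. Taking the nearest measured gene on either side of each member, a choice made after the values were seen, 12 of 20 flanking genes were higher in right EC, with a median log2 fold of -0.01, and 2 had a listed p under 0.05 in the authors' deposited table. The largest of the 20 folds was the 1.34-fold of Defb9. Beside Cldn2, Morc4 was 1.11-fold higher in right EC (listed p = 0.0308), and beside Ttr, Dsg2 and B4galt6 were 1.05-fold and 1.04-fold higher in left EC, in the authors' deposited table.

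**Figure D2:**
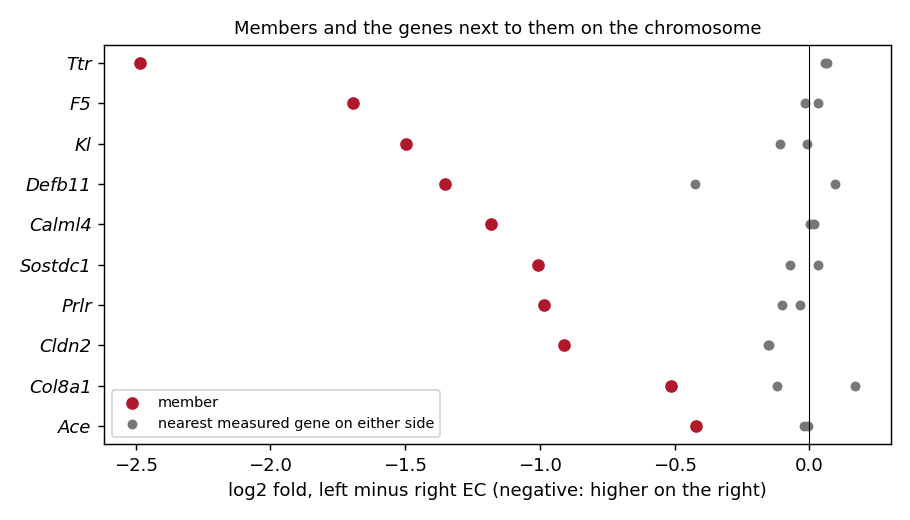
Log2 fold, left minus right EC, in the authors' deposited table (x axis) of each member (red) and of the nearest measured gene on either side of it on the chromosome (grey). The grey points lie near 0, the farthest being Defb9 at -0.42 beside Defb11.

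Upstream sequence was available for 8 of the 10 members, in 11 windows. The OTX letters TAATCC, both forkhead forms (TGTTTAC as well as TATTTAC) and the RFX letters GTTGCC, sought on both strands, were each in 1 of the 11 member windows (9.09%), against 7.06%, 3.65%, 3.04% and 12.5% of all 32851 RefSeq windows of 300 bases. TATAAA was in 2 (18.2% against 13.6%), CAGCTG in 3 (27.3% against 16.3%) and TAATTA in 0 (5.29% of all windows). With 11 windows these shares cannot be told from the background, and no motif was common to the members. The upstream windows of Kl, F5 and Calml4 held none of the searched letters.

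The member with the largest fold, Ttr, did not have the smallest p-value. Their folds ran from 1.34 to 5.59, whereas the normal deviates of their p-values in the authors' deposited table lay between 1.61 and 2.3. The approximate standard error therefore grew with the fold, from 0.247 log2 units for Col8a1 to 1.20 for Ttr, with a median of 0.53. Over all genes its median was 0.0648, so the members' median was 8.18 times as large. By this error 5 members were among the 20 genes with the largest, and the lowest-ranked member, Col8a1, was 130th of 18746. This error is made from the folds and p-values that chose the members, so nothing is read from the ratio or the ranks. The authors' shorter table of 6 genes, each with a listed p under 0.01 and a fold of at least 1.505 in either direction, held 0 of the members.

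**Figure D3:**
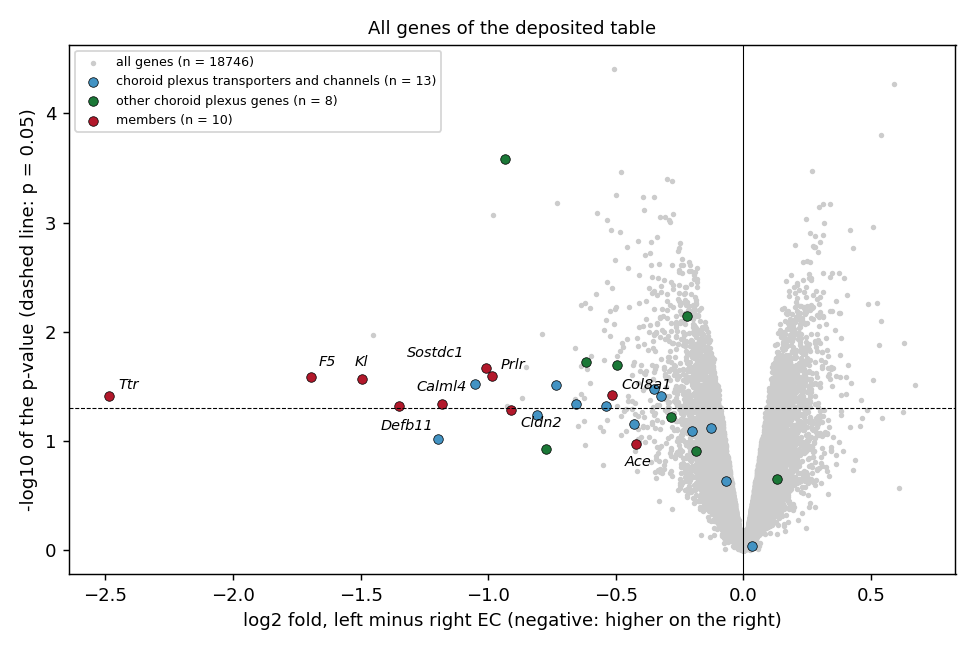
Log2 fold, left minus right EC (x axis), against -log10 of the listed p (y axis) for all 18746 genes of the authors' deposited table. The 10 members (red) lie left of 0 at p-values between 0.0213 and 0.107, from Ttr, the leftmost gene, to Col8a1 and Ace, which ranked 54th and 89th to that side. On the x axis the listed choroid plexus transporters and channels (blue) and other choroid plexus genes (green) lie among them or nearer to 0. Mir204, Cab39l, Rdh5 and Car12 (green) lie above all members, at listed p-values from 0.000264 to 0.0203.

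Other choroid plexus genes are set beside the members as a description. Of 13 transporter and channel genes 12 were higher in right EC in the authors' deposited table, 6 with a listed p under 0.05, and the median log2 fold was -0.43. Of all genes 46% were higher in right EC, and 4.1% had such a p on that side. The potassium channel Kcnj13 was 2.29-fold higher in right EC (listed p = 0.0969), the chloride channel protein Clic6 2.07-fold (listed p = 0.0302), the cation channels Trpv4 1.66-fold (listed p = 0.0304) and Trpm3 1.28-fold (listed p = 0.0331), and the water channel Aqp1 1.58-fold (listed p = 0.046), in the authors' deposited table. Steap1, a gene of the STEAP family, was 1.45-fold (listed p = 0.048) and the anion transporter Slco1a5 1.25-fold (listed p = 0.0384) higher in right EC in the authors' deposited table. The sulfate transporter Slc13a4 was the exception, at a log2 fold of 0.03 (listed p = 0.911) in the authors' deposited table.

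Of 8 further choroid plexus genes 7 were higher in right EC in the authors' deposited table, 4 with a listed p under 0.05, and the median log2 fold was -0.39. Mir204, a microRNA encoded within Trpm3, was 1.91-fold higher (listed p = 0.000264), the retinol dehydrogenase Rdh5 1.53-fold (listed p = 0.0189), the carbonic anhydrase Car12 1.41-fold (listed p = 0.0203) and Cab39l 1.17-fold (listed p = 0.00721), in the authors' deposited table. Msx1, a homeobox gene, was higher in left EC at a log2 fold of 0.13 (listed p = 0.223) in the authors' deposited table. Both lists were drawn up with results of these data known, so nothing is read from their counts beside the 46% and 4.1% of all genes. Of their genes 0 passed adjustment over all genes. Otx2, Folr1, Enpp2 and Lmx1a, which also mark this epithelium, were not analysed here. The same holds for Wfdc2 and Wdr86 of this list and for Slc2a12, Slc4a5 and Tmem72 of the transporter list.

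Marker lists of other cell types had medians nearer to 0, on both sides of it. Ependymal and cilium genes, from the cells that line the ventricles, were higher in right EC in 9 of 9 cases in the authors' deposited table, with a median log2 fold of -0.21 and 1 listed p under 0.05. Tmem212 was 1.47-fold (listed p = 0.167), Tppp3 1.16-fold (listed p = 0.0469) and Mia1 1.16-fold higher (listed p = 0.0513), in the authors' deposited table. Of 10 genes of the meninges and fibroblasts 8 were higher in left EC, with a median of 0.21 and 1 listed p under 0.05. The largest folds there were those of the transporter gene Slc47a1 (1.59-fold, listed p = 0.0308) and Prg4 (1.54-fold, listed p = 0.0545), in the authors' deposited table.

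Vessel genes were near 0 in the authors' deposited table, with a median log2 fold of -0.03 for 6 endothelial genes, led by Cdh5 (1.06-fold higher in left EC) and Slc2a1 (1.06-fold higher in right EC), and of -0.04 for 6 mural genes, led by Tagln (1.07-fold higher in right EC). The 3 blood genes were higher in left EC with a median of 0.16, including Hbb-b1 (1.19-fold, listed p = 0.406) and Alas2 (1.12-fold, listed p = 0.597), in the authors' deposited table. Of 9 cortical neuron genes 8 were higher in left EC in the authors' deposited table, with a median of 0.07, led by Lamp5 (1.13-fold, listed p = 0.0191) and the transcription factor Tbr1 (1.13-fold, listed p = 0.0346). The part of choroid plexus or ventricular tissue in the values of the members was not tested, and without named levels per array neither these markers nor those of cortical neurons could be read in single samples.

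**Figure D4:**
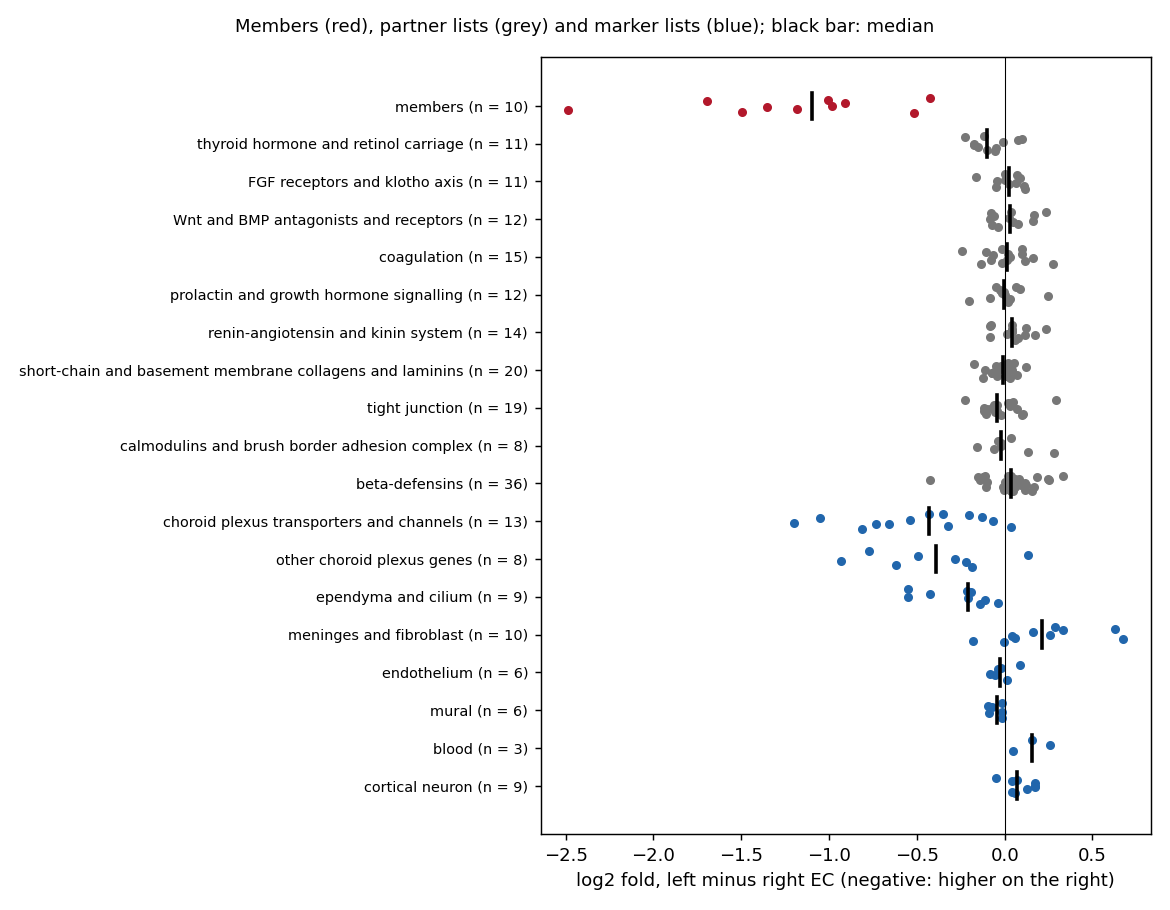
Log2 folds, left minus right EC, in the authors' deposited table (x axis) for the members (red), the partner genes of their pathways or gene families (grey) and marker genes of cell types (blue), 1 point a gene and a black bar at each median. The medians of the partner lists lie between -0.10 and 0.04, those of the choroid plexus lists at -0.43 and -0.39, and that of the members at -1.09.

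Over the 10 partner lists, which hold genes of the members' pathways or gene families, the genes were at the level of the table as a whole. Of 158 partner genes 12 had a listed p under 0.05 (7.59%) against 7.87% of all genes in the authors' deposited table, 8 higher in right EC and 4 on the left. With the row of the smallest p for each gene the shares were 8.86% and 8.63% in the authors' deposited table. By list 21.4% (renin-angiotensin and kinin) to 81.8% (thyroid hormone and retinol) were higher in right EC, against 46% of all genes. The median log2 fold of the partner genes was 0.02 and 0 of them reached 1.5-fold in either direction.

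Around the 1.5-fold line, which Col8a1 and Ace did not reach, the genes of no list just past it in right EC were the retinoic acid degrading enzyme Cyp26b1, the small nucleolar RNA Snord87 and the zinc finger gene Zim1, at 1.52-fold, 1.52-fold and 1.51-fold in the authors' deposited table. Just short of it were Snord68, Mir505 and Fam216b at 1.49-fold, 1.49-fold and 1.48-fold in the authors' deposited table. Beyond 2-fold to the right lay 9 genes in the authors' deposited table, 6 of them members. The rest, named after their values were seen, were Kcnj13, Clic6 and 1110059M19Rik, which RefSeq lists as Prr32 and which was 2.73-fold higher in the authors' deposited table.

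The per-array table shows how differences of this size were made up, though its rows carry no gene names here and none of them is assigned to a member. Among its 20672 rows with a mean above the median signal, 9 were over 2-fold higher in right EC (0.0435%) and 0 on the left, with differences in log2 signal from -2.48 to -1.01. This balance depended on single arrays: without right 2 the counts were 5 in right EC and 7 in left EC, without left 1 they were 6 and 3, and without left 3 they were 6 and 1. One of the 9 rows, row 17218861, had log2 signals of 6.87, 8.11 and 7.24 on the left and of 9.81, 9.73 and 7.73 on the right. The right 3 array of this row lay below the left 2 array, so the sides overlapped.

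The places of left 2 and right 3 within their sides recurred in every one of the 9 rows. Left 2 was the highest left array in 9 of 9, right 3 was the lowest right array in 9 of 9, and left 2 exceeded right 3 in 9 of 9, by 0.119 to 0.877 in log2 signal. The replicate SD of these rows was 0.284 to 2.11 on the left and 0.627 to 1.31 on the right (n = 3 arrays each), against a median within-side SD of 0.0641 over all rows above the median signal. The median difference of the 9 rows was -1.20, and it was -1.95 without right 3, -1.62 without left 2 and -0.98 without right 1. Limma gave adjusted p-values of 0.654 to 0.739 for these rows, and 6 of the 9 had an unadjusted limma p under 0.05. Over all 41345 rows limma called 0 at an adjusted p under 0.05, and 3023 (7.31%) at an unadjusted p under 0.05. An unmoderated test per row called 0 and 2800. The 9 rows were selected for their difference in the same limma fit. Their side is therefore given by the selection, and nothing is read from their limma p-values. Whether left 2 and right 3 hold the same places in the members was not tested.

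**Figure D5:**
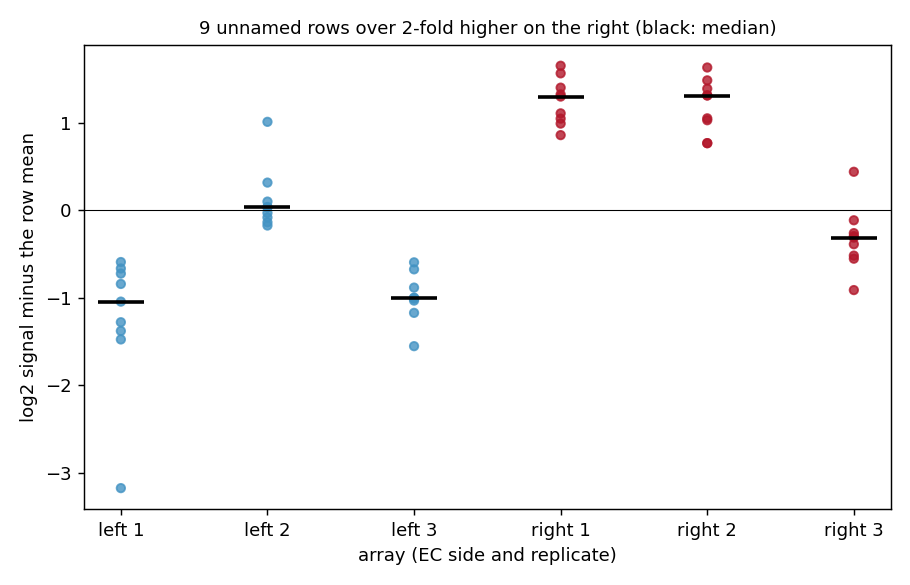
Log2 signal minus the row mean (y axis) on each array (x axis) for the 9 unnamed rows above the median signal that were over 2-fold higher in right EC, with 1 point a row and a black bar at the median. By their medians right 1 and right 2 are high and left 1 and left 3 low, with left 2 and right 3 in between, and left 2 is above right 3 in 9 of 9 rows.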

How the data were processed

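The authors deposited a p-value and a signed fold for 20414 rows of left versus right EC, and a shorter table of the same kind with a p under 0.01, per the file headers. Ingenuity iReport was used, per the series description. The authors also deposited log2 signals for 41345 rows and 6 arrays, with medians of 7.24 to 7.28 per array. Neither their normalization nor the test behind the p-values is stated in the labels or headers.

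Signed folds were turned into log2 folds. The rows gave 18746 genes, of which 1111 had several rows, for which log2 folds and signed normal deviates were averaged. The p of such a gene is that of its averaged deviate, also where p-values are counted as listed. All 10 members had 1 row each. Of the genes 17944 had an identifier in the RefSeq table of GRCm38.p6, whose promoter table supplied the sequences. P-values were adjusted with Benjamini-Hochberg over all genes (statsmodels 0.14.6). Per-array values were tested with limma 3.58.1 in R 4.3.3, side as the only term, after tests on simulated data.

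The members and lists were chosen with earlier results of these data known. Listed genes without a value here were left out of all list counts and medians. The text names all members, each listed gene with a deposited p under 0.05, and in each list the 2 smallest p-values and the largest fold, as well as 3 genes on either side of 1.5-fold. One item under this rule is not reported here. The part of that rule that needs named per-array values was not run. Alternatives are given in the closing section. The number of arrays, 3 per side, limits the precision. The limma p-values set a difference against the spread between these samples. Which spread enters the deposited p-values is not stated.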

Additional observations from a re-analysis of the deposited data

How the results depend on the processing

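The count of members with a deposited p under 0.05 was 8 and that of partner genes 12, and both were 0 at a deposited p under 0.01, a threshold that 1.58% of all genes passed. With the row of the smallest p in place of the mean, partner genes numbered 14 (8.86%, against 8.63% of all genes) and 18 of 18 list medians kept their sign. Limma called 0 rows under every alternative run, with 1808 to 3249 at an unadjusted p under 0.05 (1808 where only the rows above the median signal were fitted) and 2104 to 3829 when 1 array was left out. Same-numbered arrays did not deviate together (correlations of 0.018, -0.092 and 0.046), and with the replicate number as a block limma called 0 rows, with 2790 at an unadjusted p under 0.05. The 9 rows over 2-fold higher on the right, an analysis added after seeing the data, became 8 with quantile normalization and 4 to 19 when 1 array was left out, with 19 without right 3, 16 without left 2, 6 without left 1 or left 3, 5 without right 2 and 4 without right 1. Rows over 2-fold higher on the left numbered 0 with all arrays, 7 without right 2, 3 without left 1, 1 without left 3 and 0 without left 2, right 1 or right 3, so without right 2 the larger side turned; the cause was not tested. Alternatives for the members' own rows were not run because no row is paired with a gene here. With 3 arrays per side and no named signals, no error from replicates can be given for a member.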
